A study of Homo sapiens with 4 samples.

Results

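Chromatin accessibility was described at 10 nuclear receptor genes that control lipid and drug metabolism, namely NR1I2, NR1I3, NR1H3, PPARA, PPARD, PPARG, RXRA, NR2F1, NR2F2 and NR2F6. They were taken by name, as 10 of the 48 genes of the human nuclear receptor family and of 20007 protein-coding genes in GENCODE release 44. Every peak overlapping a gene body, or the 10 kb on either side of it, was kept in each of the 4 libraries. Overlapping peaks of different libraries, sharing 1 bp or more, were joined into a region. This gave 57 regions for these genes out of 80551 in the genome (hg38). That total includes regions on sequences outside the main chromosomes, where no gene window was placed.

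The libraries were ATAC-seq libraries, in which a transposase inserts sequencing adapters into open chromatin. All came from 50000 wild-type HepG2 cells, a human liver cancer line, each sample being the same cell line. The 2 Control libraries are labelled untreated. The 2 Tazemetostat libraries came from cells given 5 µM tazemetostat, an inhibitor of the histone methyltransferase EZH2, for 48 h. Cells of both groups had 24 h of stabilisation, which came before the drug in the Tazemetostat group. The drug was dissolved in DMSO, and whether the Control cells received DMSO is not given in the labels. The design asks where accessibility differed after EZH2 inhibition. Nothing in the labels says that the 2 libraries of a group came from separate cultures. The p-values below therefore rest only on the spread between these libraries.

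Nuclear receptors are transcription factors, many of which are switched by small fat-soluble ligands. The receptors for drugs, bile acids, oxysterols and fatty acids bind DNA as heterodimers with a retinoid X receptor, at paired copies of the hexamer AGGTCA. In hepatocytes they adjust drug clearance, cholesterol export and fatty acid oxidation to the supply of their ligands, and the COUP-TF orphan receptors can occupy the same hexamers.

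Mapped tags numbered 17191428 and 23800380 in Control replicates 1 and 2 and 19844503 and 26564400 in Tazemetostat replicates 1 and 2. The share of tags inside called peaks was 4.32% and 5.69% in the Control libraries and 11.5% and 9.81% in the Tazemetostat libraries. Values below are normalised tag counts, the tags in a peak per 10000000 mapped tags, and they therefore carry this genome-wide difference. Peak calling assumed fragments of 200 bp in the Control group and 144 bp in the drug group, a setting that cannot be told apart from the treatment. Of 10 hepatocyte marker genes, 8 had a region called in all 4 libraries (not ALB or FOXA2), against 3 of 8 genes marking other cell types (not PTPRC, CD3E, STAB2, COL1A1 or COL1A2) and 52.5% of protein-coding genes. Summed over the hepatocyte markers the normalised tag count was 527 and 730.2 in the Control libraries and 1403 and 1219 in the Tazemetostat libraries. Over the markers of other cell types it was 158 and 155 against 459 and 379. Both marker lists were thus higher in the Tazemetostat libraries, and the part of the genome-wide difference in the results below was not tested beyond the rescaled values given beside them.

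More peaks were called around the receptor genes in tazemetostat-treated than in untreated cells. The windows of the 10 genes held 20 and 28 peaks in the Control libraries and 48 and 43 in the Tazemetostat libraries, that is 24 ± 5.66 against 45.5 ± 3.54 (SD, n = 2 each). Their summed normalised tag count was 412 and 594 in the Control libraries against 1236 and 1063 in the Tazemetostat libraries, a ratio of means of 2.28. The length covered by peaks was 8.70 and 12.6 kb against 22.8 and 20.9 kb, a ratio of 2.05, while the normalised tag count per kb of peak was 47.4 and 47.0 against 54.3 and 50.8, a ratio of 1.11. In all of these measures the lower of the Tazemetostat libraries exceeded the higher of the Control libraries. The exact two-sided permutation test gave p = 0.333 for each, the smallest p that 2 against 2 libraries allow. The windows held 0.0765% and 0.0805% of all peaks of the Control libraries and 0.0868% and 0.0794% of those of the Tazemetostat libraries, 2 ranges that overlap.

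**Figure D1:**
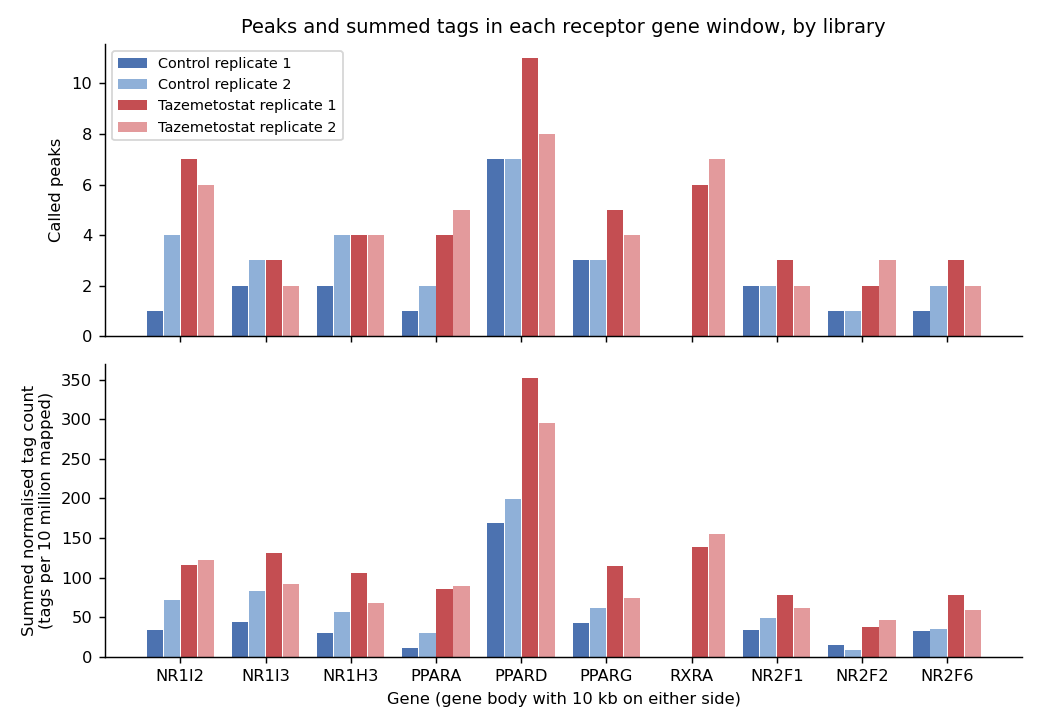
Called peaks (upper panel) and their summed normalised tag count in tags per 10000000 mapped tags (lower panel) in the window of each gene, with a bar for each library and no error bars. RXRA has no bar in either Control library and 6 and 7 peaks in the Tazemetostat libraries, and PPARD has the tallest bars in every library.

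Of the 57 regions, 16 were called in all 4 libraries (28.1%, against 20.4% of all regions), 10 in both Tazemetostat libraries and no Control library (17.5%, against 13.7%), and none in both Control libraries alone (0.449% of all regions; 1.34% of protein-coding genes had such a region). The other 31 showed other patterns, and 20 of the 57 were called in a single library, 10 of them in Tazemetostat replicate 1 only. A region called in both Tazemetostat libraries and no Control library, below called drug-only, is a difference in calling. A peak had to stand at least 4-fold above the surrounding 10 kb to be listed, and a region missing from a Control list has no value there. Low tags, a high local background and a true difference therefore cannot be told apart. Drug-only regions occurred at 5 of the 10 genes (NR1I2, PPARA, PPARG, RXRA and NR2F2), against 32.5% of all protein-coding genes and 50% of the genes with at least 3 regions, a minimum that each of the 10 met. With the windows cut to the gene bodies 6 such regions at 4 genes were left, with equal numbers of peaks taken from each library there were 5 at 3 genes (PPARA, RXRA and NR2F6), and with a local fold of at least 8 none. Leaving out Control replicate 2, Tazemetostat replicate 1 or Tazemetostat replicate 2 raised the 10 regions to 18, 18 and 21, as fewer libraries had to meet the pattern.

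Tag counts could be tested at the 15 regions that had exactly 1 peak in each library. Of these, 7 were higher in the Tazemetostat libraries and none lower at a Benjamini-Hochberg adjusted p of 0.05 over all 15383 such regions. The test was limma on log2 of the normalised tag count plus 1. It draws each region's variance towards that of all tested regions. A limma SE or p is thus not the spread of that region's own libraries alone. Across all tested regions 42.7% were higher and 0.247% lower, so that the share at the receptor genes, 46.7%, was near the background. The groups did not overlap, with the drug group higher, at 15 of the 15 regions, against 81.6% of all tested regions. The median log2 difference was 0.72 at the receptor genes and 0.70 over all tested regions.

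These calls rested on scaling by mapped tags. With each library centred on the median of its tested regions, none of the 15 was called by limma, also at an unadjusted p of 0.05, and 7 lay above 0 and 8 below. No region at all was called on that scaling (0% higher and 0% lower), while an unadjusted p of 0.05 was passed by 468 regions upward and 1188 downward. edgeR with TMM factors and DESeq2 likewise called none of the 15, with 0 at an unadjusted p of 0.05, and 8 of the 15 lay above 0 in both. Over all tested regions edgeR with TMM factors called 0.15% higher and 1.13% lower, and DESeq2 0.0195% higher and 0.67% lower. edgeR with the mapped tags as library sizes called 8 of the 15 higher, against 48.5% higher and 0.338% lower over all. Per kb of peak 4 were called, against 32.9% higher and 0.26% lower over all, with a median of 0.31 at the receptor genes and 0.41 over all tested regions. A verb of change below refers to the scaling by mapped tags alone. Without Control replicate 1 the number called was 1, the PPARD promoter, without Control replicate 2 it was 9, and without either Tazemetostat library it was 0, with 1 (without Tazemetostat replicate 1) and 6 (without Tazemetostat replicate 2) at an unadjusted p of 0.05.

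**Figure D2:**
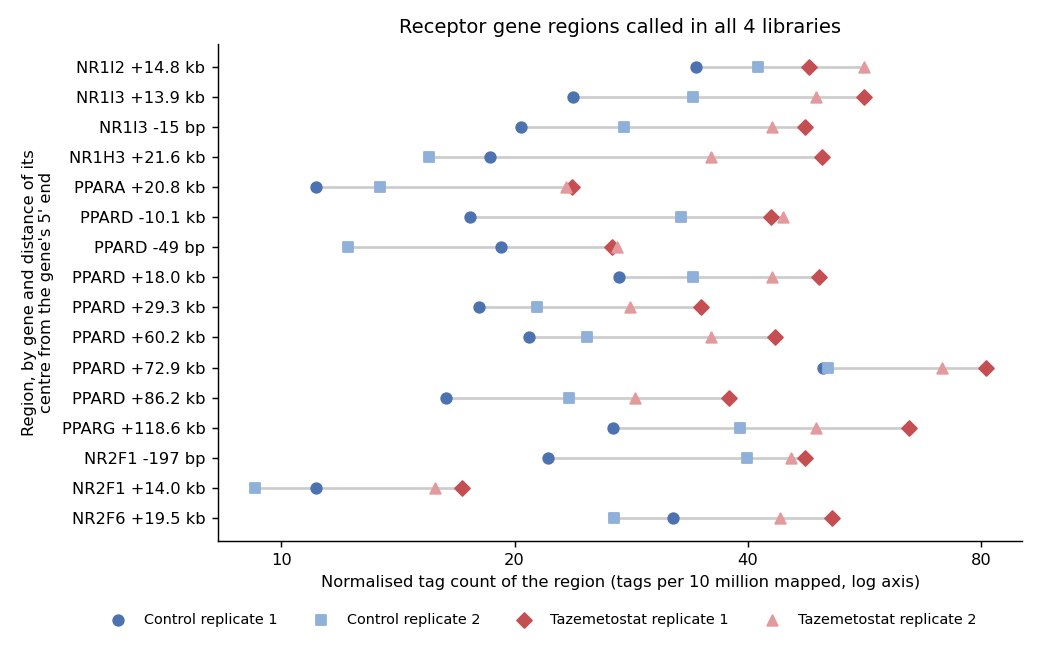
Normalised tag count (tags per 10000000 mapped tags, log axis) in each library at the 16 regions called in all 4 libraries, with the gene and the distance of the region's centre from the gene's 5′ end; grey lines span the 4 values. Both Tazemetostat points lie to the right of both Control points in every row, and the PPARD region at +72.9 kb has the highest values.

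**Figure D3:**
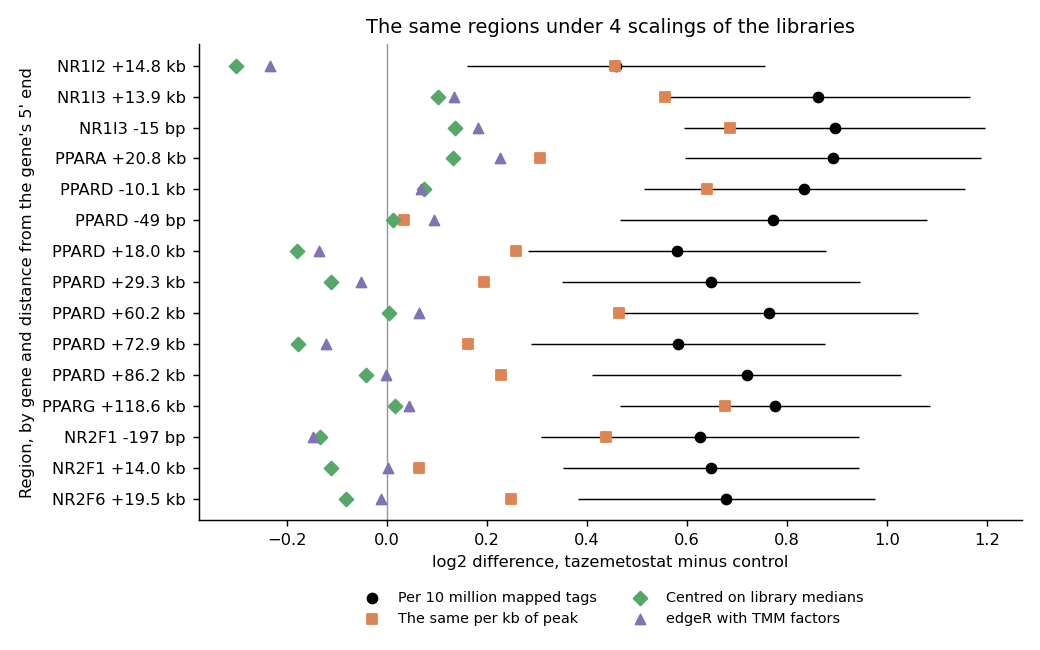
The log2 difference, Tazemetostat minus Control, at the 15 tested regions under 4 scalings, with the standard error of the limma fit as bars on the black points. Values per 10000000 mapped tags lie between 0.46 and 0.90, and those centred on library medians lie on both sides of 0.

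NR1I2 encodes PXR, the receptor that induces drug-metabolising enzymes and transporters such as CYP3A4 when drugs bind it. Its gene spans chr3:119780484-119818487, and its window also holds GSK3B and a coding gene without a symbol. Its strongest region lay in an intron 14.8 kb from the gene's 5′ end, with 34.3 and 41.2 in the Control libraries and 47.9 and 56.5 in the Tazemetostat libraries. The groups did not overlap, but the log2 difference of 0.46 ± 0.30 (SE) was not called (adjusted p = 0.181), and it was the smallest of the 15. It turned to -0.30 when the libraries were centred on their medians. The central 300 bases of this region are shown as the only NR1I2 region called in every library; here and below, sequences are the plus strand of hg38, and capitals mark a match, on either strand, to the receptor hexamer AGGTCA, the AP-1 motif TGACTCA, the FOXA motif TGTTTAC, the HNF4 motif CAAAGTCCA or the E-box CACGTG. This region holds 1 AP-1 match and no receptor hexamer.

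NR1I2, +14.8 kb, chr3:119795141-119795440: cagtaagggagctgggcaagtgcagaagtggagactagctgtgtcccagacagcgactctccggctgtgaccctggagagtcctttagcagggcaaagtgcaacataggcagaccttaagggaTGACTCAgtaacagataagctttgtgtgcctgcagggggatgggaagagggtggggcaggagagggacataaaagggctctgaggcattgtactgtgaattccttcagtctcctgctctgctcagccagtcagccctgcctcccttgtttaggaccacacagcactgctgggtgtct

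At the start of NR1I2, 1.26 kb from the 5′ end and where 2 annotated transcripts start, no peak was called in Control replicate 1, and the values were 7.56 in Control replicate 2 and 14.1 and 20 in the Tazemetostat libraries. A region 2.72 kb past the gene's 3′ end was drug-only, with 13.1 and 6.40. The gene's summed normalised tag count was 34.3 and 71.5 in the Control libraries against 116 and 122 in the Tazemetostat libraries, and the groups did not overlap.

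NR1I3 encodes CAR, the other xenobiotic receptor of the liver, which shares many target genes with PXR. The gene lies on the minus strand at chr1:161229666-161238244, and its promoter region, centred 15 bp before its 5′ end, covered the starts of 31 annotated transcripts. This region held 20.4 and 27.7 in the Control libraries and 47.4 and 42.9 in the Tazemetostat libraries. It rose by a log2 difference of 0.90 ± 0.30 (adjusted p = 0.0274), the largest difference among the 15 regions, and it was also called per kb of peak (0.69, adjusted p = 0.0138). A region 13.9 kb from the 5′ end, at the promoter of APOA2, which encodes a high-density lipoprotein protein, rose as well, from 23.8 and 34 to 56.4 and 48.9 (0.86 ± 0.30, adjusted p = 0.0323). No NR1I3 region was drug-only, and both of these rises came to 0.14 and 0.10 once the libraries were centred.

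NR1H3 encodes LXRα, the oxysterol receptor that drives cholesterol export and fatty acid synthesis. Its window at chr11:47238300-47279033 is crowded, holding DDB2, ACP2 and MADD, and its 6 regions were spread over 5 patterns of libraries. The region where 9 of its annotated transcripts start, which is also the promoter of ACP2, had 13.0 in Control replicate 2 and 22.2 and 12.8 in the Tazemetostat libraries, with no peak in Control replicate 1. There the groups overlapped. The region called in all libraries was at the MADD promoter, 0.825 kb past the 3′ end of NR1H3, with 18.6 and 15.5 against 49.9 and 35.8. It had 2 peaks in Tazemetostat replicate 2 and was not among the 15 tested; with several peaks summed, its log2 difference was 1.27 ± 0.31 (adjusted p = 0.0130), above the 0.71 of all regions tested that way. Its window also held 2 of the 4 regions called in a Control library alone, 11.6 in Control replicate 1 at 6.70 kb and 14.3 in Control replicate 2 at 9.37 kb.

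PPARA encodes the fatty acid receptor that drives oxidation in the fasted liver. Its gene spans chr22:46150521-46243755, and no library had a peak at its first annotated start, where both RefSeq promoters (GRCh38.p14) have a GC content of 85.7% and 86.7%, above 99.8% and 99.9% of 35116 RefSeq promoters. The region that was called in all libraries lay 20.8 kb downstream, where 2 shorter annotated transcripts start. It rose from 11.1 and 13.4 to 23.7 and 23.3 (0.89 ± 0.30, adjusted p = 0.0261), and the groups did not overlap. Per kb of peak the difference was 0.31 and was not called (adjusted p = 0.24), and the peaks were longer in the Tazemetostat libraries, 741 and 629 bp against 388 and 501 bp. Its regions called in both Tazemetostat libraries and no Control library lay 2.85 kb before the 5′ end, with 19.7 and 26.4, and in an intron at 51.2 kb, with 10.1 and 8.66.

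PPARD encodes the widely expressed PPARδ, which also drives fatty acid use. Its window at chr6:35332558-35438191 held 12 regions, the most of any of the 10 genes, and 7 of them were called in all libraries. Its summed normalised tag count was 169 and 199.5 in the Control libraries against 352 and 295 in the Tazemetostat libraries, the highest of the 10 genes in every library. No PPARD region was called only in both Tazemetostat libraries, and its other 5 regions were called in a single Tazemetostat library each. Of the 7 tested regions 3 rose. The region 10.1 kb before the gene went from 17.5 and 32.8 to 42.8 and 44.4 (0.83 ± 0.32, adjusted p = 0.0431), and this difference was 0.40 without Control replicate 1 and 1.27 without Control replicate 2. The promoter region, centred 49 bp before the 5′ end, went from 19.2 and 12.2 to 26.7 and 27.1 (0.77 ± 0.31, adjusted p = 0.0478), but the difference was 0.47 without Control replicate 2 and 0.03 per kb of peak. The intronic region at 60.2 kb went from 20.9 and 24.8 to 43.3 and 35.8 (0.76 ± 0.30, adjusted p = 0.0447). Per kb of peak its difference was 0.46 and was not called (adjusted p = 0.0791). The other 4, at 18.0, 29.3, 72.9 and 86.2 kb, had log2 differences of 0.58 to 0.72 and adjusted p of 0.0604 to 0.103; that at 86.2 kb was 0.47 without Control replicate 1.

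The intronic region at 72.9 kb had the highest normalised tag count of all 57 regions, 50.0 and 50.8 in the Control libraries and 81.1 and 71.1 in the Tazemetostat libraries (0.58 ± 0.29, adjusted p = 0.0980). It is shown as the strongest receptor gene region in every library, and its centre holds a receptor hexamer and a FOXA match.

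PPARD, +72.9 kb, chr6:35415336-35415635: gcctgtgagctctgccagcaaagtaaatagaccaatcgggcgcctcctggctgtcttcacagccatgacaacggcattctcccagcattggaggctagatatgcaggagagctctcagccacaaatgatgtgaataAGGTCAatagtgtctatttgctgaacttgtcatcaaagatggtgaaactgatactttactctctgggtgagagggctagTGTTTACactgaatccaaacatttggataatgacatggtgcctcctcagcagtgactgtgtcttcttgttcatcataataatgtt

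PPARG encodes the adipogenic PPARγ, and its gene spans chr3:12287368-12434356. Its strongest region lay 119 kb from the 5′ end over a coding exon. It rose from 26.8 and 39.1 to 64.5 and 48.9 (0.78 ± 0.31, adjusted p = 0.0482) and was called per kb of peak too (0.68, adjusted p = 0.0151), but the difference was 0.51 without Control replicate 1. It is shown as the gene's strongest region, partly coding sequence, and it holds both a receptor hexamer and an AP-1 match.

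PPARG, +119 kb, chr3:12405818-12406117: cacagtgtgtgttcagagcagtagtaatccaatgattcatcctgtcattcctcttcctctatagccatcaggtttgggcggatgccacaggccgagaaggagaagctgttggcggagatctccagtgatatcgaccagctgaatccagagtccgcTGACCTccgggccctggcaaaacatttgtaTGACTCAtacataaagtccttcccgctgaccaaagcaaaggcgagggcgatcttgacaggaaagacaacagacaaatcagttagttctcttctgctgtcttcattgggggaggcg

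At the 5′ end of PPARG the libraries differed from each other. A region 413 bp before the start was called in Control replicate 1 only (8.14), another 688 bp past it in Tazemetostat replicate 1 only (6.05), and a region at 1.39 kb, where 7 annotated transcripts start, in both Tazemetostat libraries (12.1 and 15.8). The values of the regions called once were close to the lowest listed in their libraries, 6.40 in Control replicate 1 and 5.04 in Tazemetostat replicate 1. An intronic region at 29.8 kb had 10.5 in Control replicate 2 and 13.1 and 9.41 in the Tazemetostat libraries, and the groups overlapped.

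RXRA encodes the retinoid X receptor α, the heterodimer partner of PXR, CAR, LXRα and the PPARs. It was the only gene of the 10 with no peak in either Control library, and it had 6 and 7 peaks in the Tazemetostat libraries. Over chr9:134307098-134450585 there were 8 regions, of which 5 were called in both Tazemetostat libraries, 1 in replicate 1 only and 2 in replicate 2 only. Of the 1920 protein-coding genes with at least 8 regions, 4 (0.208%), RXRA included, had no Control peak. With RXRA's own count as the limit, 89 of all 20007 genes (0.445%) had at least 5 drug-only regions, and 2 of them (0.01%), RXRA and ARHGEF17, had no Control peak; genes with fewer than 5 regions could not have met this limit. RXRA was named here by its role and not for this pattern, but earlier results of these data were known when the genes were chosen.

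The highest values at RXRA were in the intron at 118 kb, with 41.3 and 36.1, and in the intron at 3.88 kb, with 36.8 and 32.8. The intron at 47.8 kb had 28.2 and 20.7. The regions 3.46 kb before the gene and 133 kb from its 5′ end were weaker, with 12.1 and 15.1, and 13.6 and 9.41. In the same Tazemetostat libraries the regions called in all 4 libraries at the other genes ran from 15.8 to 81.1, with a median of their means of 44.4, so that all 5 drug-only RXRA regions lay below that median. The local folds were low: over the 13 RXRA values they ran from 4.00 to 5.47 with a median of 4.42, and 11 of the 13 were under 5, where 4 is the minimum for a peak. No RXRA peak reached 8-fold, so the gene had no peak in any library at that setting. With equal numbers of peaks per library RXRA had 3 drug-only regions, and within the gene body alone 3. At least that many, with no Control peak, were found at 8 protein-coding genes (0.04%) and 16 (0.08%) in these settings, RXRA included. None of the settings run can add a Control peak.

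The 3 strongest of these regions are shown because they have the highest tag counts of the 5 drug-only regions, all of which have the same pattern of calls. That at 118 kb holds none of the motifs, that at 3.88 kb holds an E-box, and that at 47.8 kb holds the HNF4 motif on the minus strand.

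RXRA, +118 kb, chr9:134434971-134435270: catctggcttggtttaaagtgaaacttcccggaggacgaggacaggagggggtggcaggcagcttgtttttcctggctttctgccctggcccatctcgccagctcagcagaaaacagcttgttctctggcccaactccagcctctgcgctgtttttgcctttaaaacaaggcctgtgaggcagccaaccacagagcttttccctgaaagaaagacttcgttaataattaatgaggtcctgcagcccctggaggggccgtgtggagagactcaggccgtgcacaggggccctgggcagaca

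RXRA, +3.88 kb, chr9:134320826-134321125: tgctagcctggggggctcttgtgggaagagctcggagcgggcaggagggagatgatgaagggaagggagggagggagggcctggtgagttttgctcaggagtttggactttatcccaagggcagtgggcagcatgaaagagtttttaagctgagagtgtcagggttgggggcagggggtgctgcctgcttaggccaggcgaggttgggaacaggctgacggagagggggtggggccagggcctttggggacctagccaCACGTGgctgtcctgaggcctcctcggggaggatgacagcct

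RXRA, +47.8 kb, chr9:134364762-134365061: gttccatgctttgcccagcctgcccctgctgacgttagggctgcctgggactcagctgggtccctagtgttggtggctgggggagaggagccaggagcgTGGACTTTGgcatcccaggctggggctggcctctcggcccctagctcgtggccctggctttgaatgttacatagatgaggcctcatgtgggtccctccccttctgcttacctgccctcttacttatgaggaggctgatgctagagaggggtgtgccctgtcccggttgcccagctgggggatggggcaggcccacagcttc

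No peak overlapped the 1 kb before or 100 bp after any of the 5 annotated starts of RXRA, in any library. The more GC-rich of its RefSeq promoters has a GC content of 84.0%, above 99.5% of RefSeq promoters. RXRA and PPARA thus shared a GC-rich promoter with no called peak. Among the RefSeq promoters of these genes, however, those without a peak ran from 31.3% (NR2F1) to 86.7% (PPARA) in GC content. Those in a region called in all 4 libraries were at NR1I3 (50.7%), NR2F1 (51.3%) and PPARD (70.3%). The part of GC content in the missing peaks was not tested. Over all protein-coding genes, 62.9% had a promoter region called in at least 1 library and 34.9% in all 4.

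**Figure D4:**
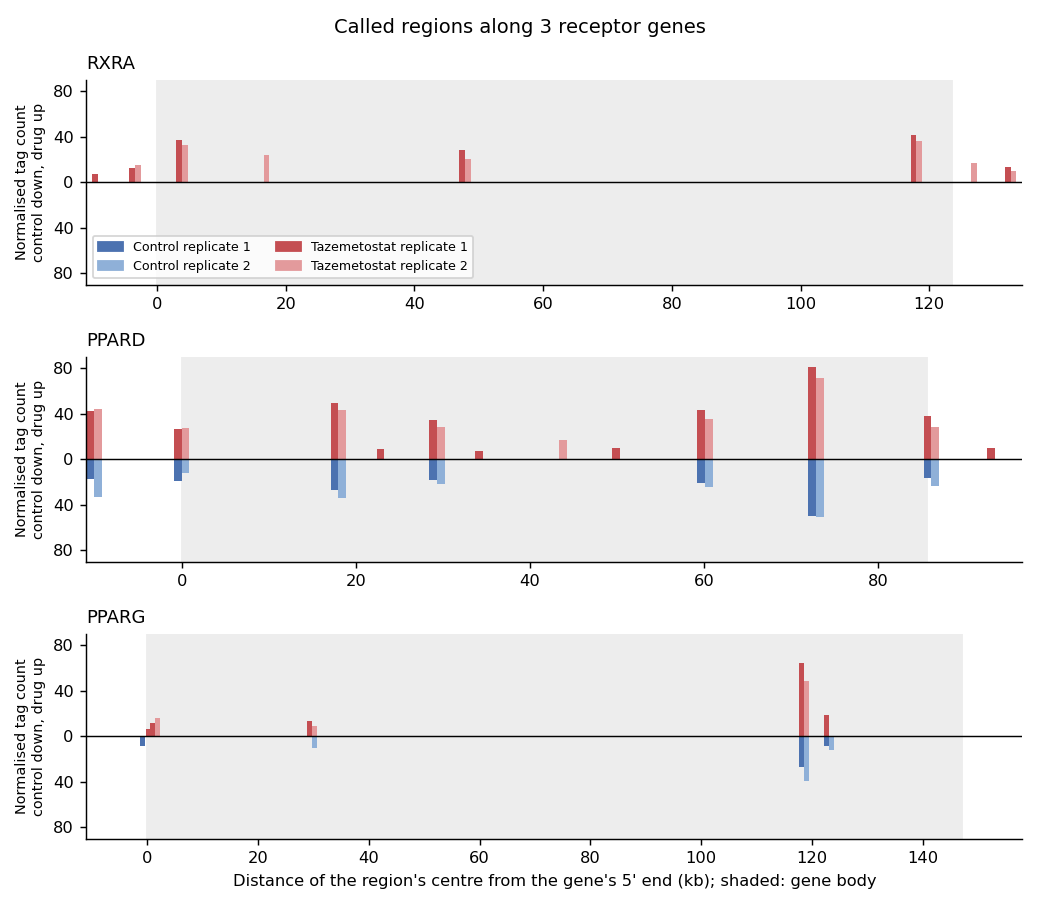
Normalised tag count (tags per 10000000 mapped tags) of each called region along RXRA, PPARD and PPARG, against the distance of the region's centre from the gene's 5′ end in kb; Tazemetostat bars point up, Control bars down, and gene bodies are shaded. RXRA has bars on the Tazemetostat side only, while 7 PPARD regions have bars from all 4 libraries.

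NR2F1 and NR2F2 encode COUP-TFI and COUP-TFII, and NR2F6 encodes EAR2. They are orphan receptors that often repress genes activated by other receptors. None of the 3 tested regions in their windows was called. The NR2F1 promoter region, centred 197 bp before the 5′ end, had 22.1 and 39.9 in the Control libraries and 47.4 and 45.5 in the Tazemetostat libraries (0.63 ± 0.32, adjusted p = 0.0996). Control replicate 2 lay closer there to the Tazemetostat libraries than to Control replicate 1, and the difference was 0.21 without Control replicate 1 and 1.04 without Control replicate 2. A weaker region 2.62 kb past its 3′ end had 11.1 and 9.24 against 17.1 and 15.8 (0.65 ± 0.30, adjusted p = 0.0732).

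NR2F2, at chr15:96325938-96340263, had the lowest summed normalised tag count in Tazemetostat replicates 1 and 2, 37.3 and 46.0, with 15.1 and 7.98 in the Control libraries. No library had a peak at its RefSeq promoters. The region at 4.68 kb, over an internal start, had 15.1 in Control replicate 1 and 26.7 and 21.5 in the Tazemetostat libraries, and no peak in Control replicate 2. The drug-only region lay over untranslated exon sequence at 13.0 kb, with 10.6 and 13.6. NR2F6 had no peak at its own promoter in any library, and its region called in all 4 libraries was the promoter of OCEL1, 5.44 kb past its 3′ end, with 32.0 and 26.9 against 51.4 and 44 (0.68 ± 0.30, adjusted p = 0.0644). Inside the NR2F6 gene the only peak was an intronic one of 11.6 in Tazemetostat replicate 1.

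The regions differed in how far they stood above their surroundings. Among the regions called in all 4 libraries the fold over the surrounding 10 kb had a median of 6.60 over 64 values. It was 4.60 over the 20 values of the drug-only regions and 4.76 over the 52 values of the other regions. The 64 values come from Control and Tazemetostat libraries alike and the 20 from Tazemetostat libraries alone, so these medians compare unlike sets of libraries. Of the drug-only values 12 were under 5, and only the PPARA region at 51.2 kb reached 8, with 10.1 in Tazemetostat replicate 1. Genome-wide, 4648 of the 11044 drug-only regions reached 8 in a library. Within the receptor windows the median fold per library was 6.60 and 5.24 in the Control and 5.03 and 4.72 in the Tazemetostat libraries, while over all peaks it was 5.92 and 5.65 against 6.09 and 5.75.

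**Figure D5:**
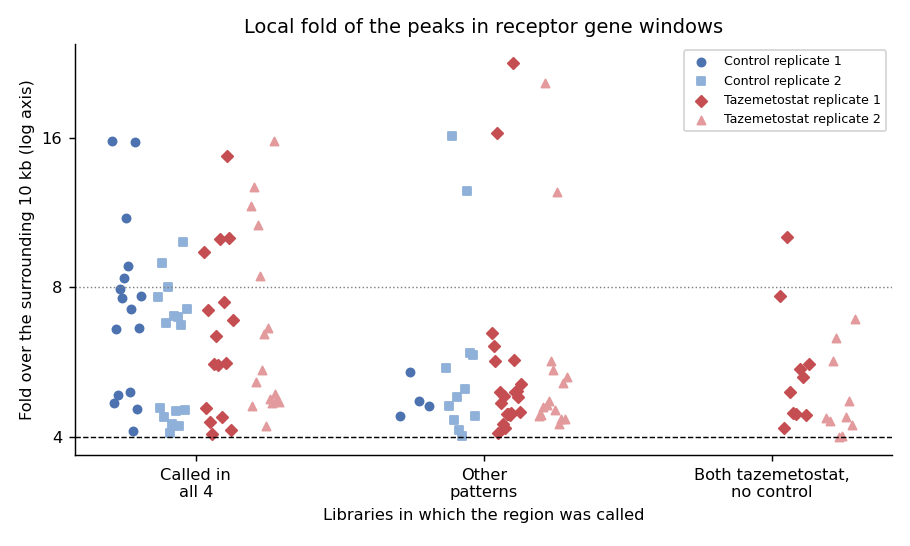
Fold of each region over the surrounding 10 kb (log axis) by library, for regions called in all 4 libraries, regions of other patterns, and regions called in both Tazemetostat libraries and no Control library; the dashed line is the minimum of 4 and the dotted line is 8. Most drug-only points lie between 4 and 8, and 12 of the 20 are under 5.

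The central 300 bases of the 57 regions had a median GC content of 54.7%, against 52.3% over the 78220 regions on the main chromosomes. For the drug-only regions it was 56.7% against 50.0%. In this paragraph all regions means these 78220. The receptor hexamer occurred in 14 of the 57 (24.6%, against 22.8% of all regions). Among regions called in all libraries it occurred in 7 of 16 (43.8%, against 20.7%), 4 of them at PPARD, and among drug-only regions in 1 of 10 (10.0%, against 26.2%), at PPARA. Exact direct repeats of the hexamer, spaced by 1 or by 4 bases, occurred in none of the 57, and in 0.0294% and 0.0205% of all regions. The AP-1 motif occurred in 6 (10.5%, against 8.25%), among them both NR1I3 regions that rose. The HNF4 motif occurred in 2 (3.51%, against 1.84%), the RXRA region shown and a PPARG intron at 123 kb. FOXA occurred in 4 (7.02%, against 8.24%) and the E-box in 2 (3.51%, against 5.35%). With so few regions these shares are descriptions, and a match is not a bound site.

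In 38 other nuclear receptor genes 42 regions could be tested, of which 23 rose (54.8%, against 42.7% of all tested regions) and none fell, with a median log2 difference of 0.81. Of these 38 genes 19 had a drug-only region, against 32.5% of all protein-coding genes and 50% of those with at least 3 regions. That minimum was not met by every gene here, as 36 of the 38 had any region. A drug-only region with no Control peak occurred at 6 of them, against 5.45% of all protein-coding genes: NR1D1, RXRB, NR2E1, ESRRA, ESRRG and NR5A1. The window of RXRB, a paralog of RXRA singled out after its values were seen, summed to 6.55 and 21.5 in the Tazemetostat libraries. The drug-only region at the start of NR1D1, the clock repressor REV-ERBα, had 89.2 and 49.3. HNF4A, the hepatocyte master regulator, had a region that rose from 48.9 and 68.9 to 113 and 88.8 (0.78 ± 0.31, adjusted p = 0.0467). A region at the start of NR0B2, which encodes the repressor SHP, rose from 50.0 and 58.0 to 110 and 89.6 (0.87 ± 0.30, adjusted p = 0.0288).

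Known target genes of the receptors were counted in the same way, beside the 42.7% of all tested regions called higher. Among 10 PXR and CAR targets 4 of 7 tested regions (57.1%) rose and none fell; the UGT1A1 region, at a bilirubin-conjugating enzyme, went from 19.8 and 16 to 48.9 and 40.7 (1.28 ± 0.30, adjusted p = 0.00893). Among 8 LXR targets 6 of 14 (42.9%) rose and none fell, including a region of the lysophospholipid acyltransferase gene LPCAT3, from 14.0 and 18.1 to 37.3 and 38.8 (1.21 ± 0.30, adjusted p = 0.0107). Among 10 PPAR targets 6 of 14 (42.9%) rose and none fell, including the promoter of FABP1, the liver fatty acid carrier, from 22.7 and 22.3 to 46.9 and 40.3 (0.92 ± 0.29, adjusted p = 0.0234). Among 12 coregulator genes 6 of 16 (37.5%) rose and none fell. The LXR, PPAR and coregulator shares thus lay at or below the background, and the PXR and CAR share rests on 7 regions. The medians of these 4 lists were 0.86, 0.61, 0.69 and 0.66, against 0.70 over all tested regions.

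Over the 4 libraries, the nuclear receptor genes whose summed normalised tag counts lay closest to the median profile of the 10 genes were NR2C2, NR1H4 and HNF4G, at Euclidean distances of 0.433, 0.634 and 0.692 on the log2 scale. The median profile was 32.6 and 52.8 in the Control libraries and 110 and 81.3 in the Tazemetostat libraries. NR1H4, which encodes the bile acid receptor FXR, had 25.6 and 36.2 against 112 and 84.4.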

How the data were processed

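Tools named in the submitters' processing notes were bcl2fastq, Trim Galore 0.6.6, Bowtie2 2.3.5.1 and HOMER 4.11.1, with reads aligned to hg38. Per the file headers, the authors called peaks with HOMER separately in each library (peaks of 300 bp, joined into longer regions, at a false discovery rate of 0.001, at least 4-fold above the surrounding 10 kb at a local p of 0.0001, and 1 tag per bp at most) and deposited for each peak its normalised tag count, a signal in tags per 10000000 mapped tags, a score, and its fold ratio over the local background. For the count models, whole tags were recovered from the deposited signal and the mapped tags in the headers; 100% came out within 0.25 of a whole number, with totals equal to those stated in the headers. The deposited score, a count of tags in the initial peak, entered no test. Errors given are the SD between libraries or the limma SE, which is moderated over all tested regions. Tags are not unique molecules, and no counting-error interval is given.

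From these, peaks were merged, assigned to GENCODE 44 genes with a 10 kb flank, and tested with limma 3.58.1 (R 4.3.3) on log2 of the normalised tag count plus 1 in regions with 1 peak per library. Promoters were 1000 bp before to 100 bp after a transcript start. Alternatives used edgeR 4.0.16, DESeq2 1.42.0, other pseudocounts, filters and scalings. Scripts were tested on simulated data. The 10 genes, the other gene lists and their tests were chosen with earlier results of these data known. All regions of the 10 genes were considered; for each other list, at most 3 regions could be named, those past the threshold, or in a single group at a gene start, with the highest mean tag count. The deposited local p-values were not used. RefSeq promoters were matched for 9 of the 10 genes.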

Additional observations from a re-analysis of the deposited data

How the results depend on the processing

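The number of tested receptor gene regions called higher, 7 of 15, was 0 with libraries centred on their medians, 0 with edgeR and TMM factors, 0 with DESeq2, 4 per kb of peak, and 0 to 9 when 1 library was left out. It was 6 to 9 of 15 under the other pseudocounts, an overlap of 50% and edgeR with mapped tags. With pseudocounts of 0.5 and 5, 6352 and 7515 of all 15383 regions were higher, and with the overlap 6555 of 15577. The number was 6 of 13 with the filter at a mean of 20 and 6 of 16 with several peaks summed. Over all regions these gave 5337 of 9862 and 6599 of 16430 higher, and 23 and 42 lower. With the replicate block 3 of the receptor gene regions were called, and over all regions 5046 were higher and 27 lower. Deviations of libraries with the same replicate number had a correlation of -0.0025 over 15383 regions. Such a correlation leaves out a shift shared by all regions, so it cannot settle whether the numbers pair the libraries. No region of the 10 genes could be tested with a local fold of at least 8.

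The 10 drug-only regions became 0 at a local fold of at least 8, 5 with equal numbers of peaks, 6 in gene bodies, and 11 to 21 with a library left out. The 5 genes with such a region became 0, 3 and 4 in these settings, and 5 to 9 with a library left out. The differences in peaks, summed tags and tags per kb kept their direction in all settings run: 2 to 25.5 peaks, 116 to 737 summed and 3.62 to 12.2 per kb.

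Centring lowered every log2 difference by the same 0.76, so the 8 regions with a main value under that turned sign, which says nothing of single regions; TMM factors and DESeq2 size factors shift all regions in much the same way. Centred on medians, edgeR with TMM factors and DESeq2 gave, in that order, -0.30, -0.23 and -0.24 at NR1I2 (+14.8 kb), -0.18, -0.14 and -0.13 at PPARD (+18.0 kb), -0.11, -0.052 and -0.049 at PPARD (+29.3 kb), -0.18, -0.12 and -0.13 at PPARD (+72.9 kb), -0.13, -0.15 and -0.13 at the NR2F1 promoter and -0.082, -0.012 and -0.026 at the OCEL1 promoter beside NR2F6. PPARD at +86.2 kb gave -0.041 centred and -0.0013 with TMM, and NR2F1 at +14.0 kb gave -0.11 centred and -0.016 with DESeq2. With 2 libraries a group, the lone library left by an omission is assumed to vary like the other group.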
